A study of Mus musculus with 12 samples.

Results

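The 10 genes of necroptosis and death receptor signalling followed here were Zbp1, Ripk1, Ripk3, Mlkl, Casp8, Fadd, Cflar, Fas, Tnfsf10 and Tnfrsf10b. They were chosen by symbol, and all 10 were found among the 54532 genes of the deposited count table and were tested. Their RNA was measured in sorted B16F10 tumours from 6 iKO and 6 Ctrl libraries. B16F10 is a pigmented mouse melanoma line, implanted here with its own Trex1 intact into male hosts aged 8 to 12 weeks. The iKO hosts were Trex1 fl/fl-R26CreERT2-ki/wt and the Ctrl hosts Trex1 wt/fl-R26CreERT2-ki/wt. All hosts of both groups therefore carried a tamoxifen-activated Cre at the Rosa26 locus, which is not limited to a cell type, and at least 1 floxed copy of Trex1, which encodes a cytosolic DNA exonuclease. All received 1 mg of tamoxifen on each of 3 days from day 5 after injection of 1000 tumour cells into the skin of both legs, and tumours were taken on day 14. The labels do not say which libraries share a mouse, so p-values measure the spread among libraries, and a mouse may have given more than 1. The comparison asks how RNA in a tumour whose implanted cells keep Trex1 differs between hosts with both copies floxed and hosts with only 1. Ctrl hosts could lose their floxed copy too, so the contrast is not with hosts of unaltered Trex1.

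Necroptosis is a lytic form of cell death that runs without caspases. The kinases RIPK1 and RIPK3 and the nucleic acid sensor ZBP1 bind each other through a short motif called RHIM, and active RIPK3 phosphorylates MLKL, which then breaks the plasma membrane. Death receptors such as Fas and the TRAIL receptor recruit the adaptor FADD and caspase-8, which starts apoptosis and also cleaves RIPK1 and RIPK3. The caspase-like protein c-FLIP, the product of Cflar, binds caspase-8 and limits both outcomes. Zbp1, Mlkl and Tnfsf10 are known as interferon-stimulated genes, and low Ripk3 is common in cultured tumour lines.

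The libraries held 29.8 to 35.5 M deposited counts in iKO and 34.3 to 45.8 M in Ctrl. Trex1 itself was listed with 0 counts in all 12 libraries, and 100% of its exon bases lie within those of Atrip, so it gives no check of the genotypes. Although the tumours were sorted against CD45, Ptprc, which encodes CD45, was at 17.4 to 345 CPM in iKO and 0.158 to 15.6 CPM in Ctrl. Pecam1, which encodes CD31, also named for the sort, was at 3.88 to 14.8 CPM in iKO and 3.06 to 5.08 CPM in Ctrl. Its log2 fold change was 1.38 (edgeR, adjusted p = 0.000565). Of 8 endothelial markers 3 were higher and 1 lower in iKO. Their summed level was 42.7 to 89.6 CPM in iKO, lowest in iKO 1, and 50.1 to 54.2 CPM in Ctrl. CPM here are scaled by the TMM method and computed over the tested genes. A leukocyte score, the mean log2 CPM of 10 leukocyte markers, was 3.58 to 7.38 in iKO and -0.89 to 3.82 in Ctrl. Library iKO 1 (3.58) and library Ctrl 5 (3.82) lay between the other iKO libraries (6.51 to 7.38) and the other Ctrl libraries (-0.89 to 0.97). All 10 leukocyte markers were higher in iKO, with a summed level of 166 to 2170 CPM in iKO and 34.0 to 197 CPM in Ctrl. So were 11 of 11 T and cytotoxic lymphocyte markers (23.9 to 315 CPM in iKO, 3.98 to 12.9 CPM in Ctrl) and 9 of 10 macrophage and monocyte markers (250 to 2269 CPM in iKO, 16.6 to 444 CPM in Ctrl). The B cell marker Ms4a1 and the neutrophil marker Ly6g were at 0 in all Ctrl libraries. The female transcript Xist reached 219 CPM in iKO 2 and 117 CPM in iKO 3, with at most 8.39 CPM elsewhere, although the labels give male mice. Fewer or more cells of a type and less or more RNA per cell cannot be told apart in such bulk libraries, and the part that cell mixture has in the results below was not tested.

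In iKO 8 of the 10 genes rose and 2 fell (edgeR quasi-likelihood test, adjusted p below 0.05). Among all tested genes 25.0% rose and 21.4% fell, 46.4% in either direction. In 6 of the genes every iKO library lay above every Ctrl library, which was the case for 11.8% of all tested genes, and in 2 every iKO library lay below, against 11.1% of all tested genes. The median log2 fold change was 0.85, against 0.02 over all tested genes. The changes fell into 3 sizes. Ripk3, Tnfsf10, Zbp1 and Fas were 5.50-fold to 8.98-fold higher, Mlkl, Ripk1 and Cflar were 1.51-fold to 2.05-fold higher, and Casp8 (1.21-fold higher), Fadd (0.785-fold) and Tnfrsf10b (0.709-fold) moved least.

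RefSeq promoter windows, 250 bases before to 50 after the annotated start (GRCm38.p6), were matched for 8 of the 10 genes (not Zbp1 and Tnfrsf10b), 9 windows in all. They were searched on both strands for the letters of an interferon-stimulated response element (GAAA, any 2 bases, GAAA) and of a gamma-activated site (TTC, any 3 bases, GAA). Of 32851 windows of the same length 3.44% held the first and 8.30% the second. Matches stood in windows of 3 of the genes, which are shown for that reason, with the matching letters in capitals. In Cflar the response element letters begin 6 bases after the start (chr1:58711241-58711540, plus strand). In Ripk1 (chr13:34002624-34002923, plus strand) the gamma-activated letters begin 108 and 11 bases before a second annotated start, and the response element letters, 5 bases before it, overlap the nearer of these. In Fas the gamma-activated letters begin 93 bases before the start (chr19:34290409-34290708, plus strand).
Cflar: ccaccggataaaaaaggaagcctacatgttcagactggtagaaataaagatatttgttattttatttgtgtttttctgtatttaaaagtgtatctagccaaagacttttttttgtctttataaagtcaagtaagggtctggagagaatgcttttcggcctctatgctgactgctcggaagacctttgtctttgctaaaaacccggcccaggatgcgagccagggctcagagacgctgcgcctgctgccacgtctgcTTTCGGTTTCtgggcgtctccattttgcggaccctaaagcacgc
Ripk1: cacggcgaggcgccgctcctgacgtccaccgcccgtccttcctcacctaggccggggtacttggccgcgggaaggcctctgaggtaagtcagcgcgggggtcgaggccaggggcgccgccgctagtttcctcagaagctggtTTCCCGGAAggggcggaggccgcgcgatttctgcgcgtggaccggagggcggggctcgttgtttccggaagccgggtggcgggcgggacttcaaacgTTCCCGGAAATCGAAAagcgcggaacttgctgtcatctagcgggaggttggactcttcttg
Fas: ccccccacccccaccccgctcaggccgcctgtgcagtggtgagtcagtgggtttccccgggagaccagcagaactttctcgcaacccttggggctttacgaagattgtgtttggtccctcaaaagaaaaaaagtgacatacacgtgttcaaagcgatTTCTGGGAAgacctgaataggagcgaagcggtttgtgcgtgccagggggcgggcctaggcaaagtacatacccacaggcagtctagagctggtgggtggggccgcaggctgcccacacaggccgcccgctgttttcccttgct
The windows of Tnfsf10, Ripk3, Mlkl, Casp8 and Fadd held neither set of letters. A match is a run of letters and was not measured as a bound site.

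Zbp1, the sensor of Z-form nucleic acid (ENSMUSG00000027514, mm10 chromosome 2, 173206612 to 173218923), ranged from 87.0 through a median of 172 to 224 CPM in iKO and from 19.2 through 21.0 to 22.2 CPM in Ctrl. The Ctrl libraries were within 1.16-fold of each other, and the lowest iKO library, iKO 1, was still far above them. Its log2 fold change was 2.99 ± 0.19 (SE; edgeR, adjusted p = 3.15e-07). Zbp1 ranked 84th of the 16164 tested genes by p, and Tnfsf10 86th.

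Ripk1, the kinase that joins death receptors to NF-kB, apoptosis or necroptosis (ENSMUSG00000021408, chromosome 13, 34002363 to 34037147), had 52.7, 60.0 and 63.8 CPM (lowest, median, highest) in iKO and 33.3, 37.6 and 40.8 CPM in Ctrl. The groups did not overlap, but the change was small (log2 fold change 0.67 ± 0.07; edgeR, adjusted p = 5.64e-06). Of its exon bases 9.01% are shared with the pseudogene Gm17084, which had 0 counts in all libraries, and with Serpinb6a on the opposite strand, whose log2 fold change of 0.21 did not pass (edgeR, adjusted p = 0.148). The libraries did not keep strand, so reads there cannot be told apart.

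Ripk3, the kinase that activates MLKL (ENSMUSG00000022221, chromosome 14, 55784995 to 55788865), was at 3.17, 16.4 and 20.8 CPM (lowest, median, highest) in iKO. It was scarce in Ctrl, at 0.865, 1.34 and 3.56 CPM, that is 37 to 129 counts per library. The groups overlapped in 1 pair of libraries: iKO 1, the lowest iKO library, stood below Ctrl 5, the highest Ctrl library. The log2 fold change was 3.17 ± 0.47 (edgeR, adjusted p = 0.000294), and 3.79 without those libraries.

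Mlkl, the executioner of necroptosis (ENSMUSG00000012519, chromosome 8, 111311797 to 111338177), was well expressed in both groups, at 85.4, 120 and 130 CPM in iKO and 50.0, 55.6 and 58.6 CPM in Ctrl. Every iKO library was above every Ctrl library, and the log2 fold change was 1.03 ± 0.09 (edgeR, adjusted p = 2.28e-06). The lowest iKO library for Mlkl was iKO 4, which had the highest leukocyte score. The next lowest was iKO 1 (97.0 CPM), which had the lowest score of the iKO libraries. The part of leukocytes in these values was not tested.

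**Figure D1:**
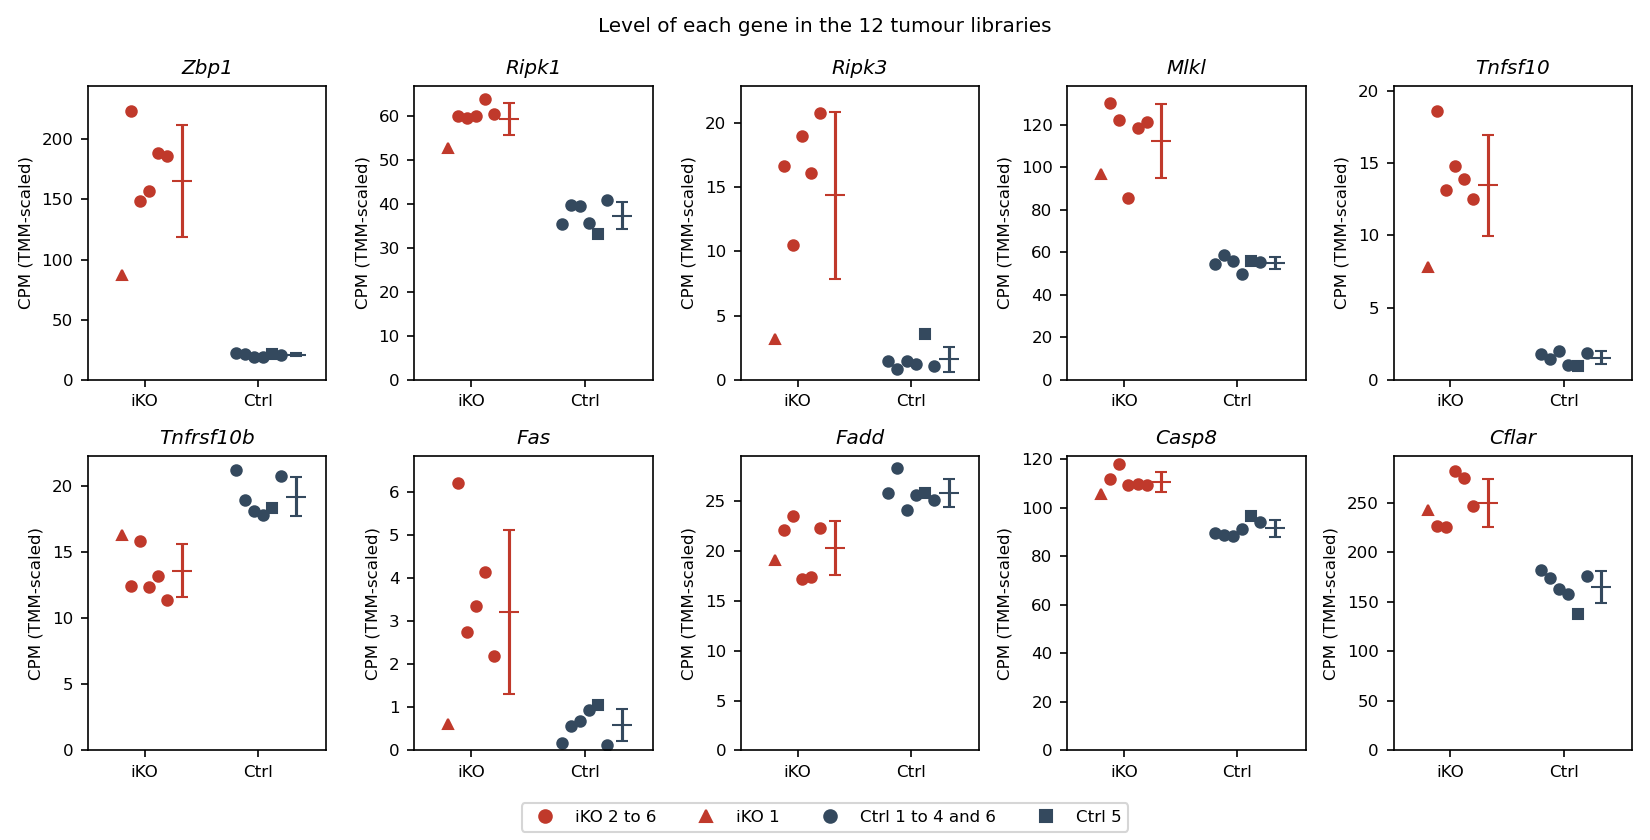
Each panel plots the TMM-scaled CPM of 1 gene in the 6 iKO and 6 Ctrl libraries, with the mean and SD beside the points; the vertical axes start at 0. The iKO points lie above all Ctrl points for Zbp1, Ripk1, Mlkl, Tnfsf10, Casp8 and Cflar and below them for Tnfrsf10b and Fadd, while Ripk3 and Fas overlap through iKO 1.

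The ligand and the receptor of the TRAIL pair moved in opposite directions. Tnfsf10, which encodes the death ligand TRAIL (ENSMUSG00000039304, chromosome 3, 27317028 to 27342427), had 7.79, 13.5 and 18.6 CPM in iKO and 0.965, 1.62 and 2.00 CPM in Ctrl. Its log2 fold change was 3.13 ± 0.23 (edgeR, adjusted p = 3.67e-07) with no overlap. Ctrl 5, the Ctrl library with the highest leukocyte score, had the lowest Tnfsf10 of all 12. Within iKO the lowest was iKO 1 (7.79 CPM), the iKO library with the lowest score. The part of leukocytes in Tnfsf10 was not tested. Tnfrsf10b, which encodes the mouse TRAIL death receptor (ENSMUSG00000022074, chromosome 14, 69767472 to 69784411), had 11.4, 12.9 and 16.3 CPM in iKO and 17.8, 18.7 and 21.3 CPM in Ctrl. All 6 iKO libraries were below the lowest Ctrl library, and the log2 fold change was -0.50 ± 0.10 (edgeR, adjusted p = 0.00124). The highest iKO library was iKO 1. Pigment cell markers moved the same way: 7 of 8 fell, against 21.4% of all tested genes. Their summed level was 15729 to 22575 CPM in iKO, highest in iKO 1, and 22671 to 23059 CPM in Ctrl. Fadd, which also fell, was at 19.2 CPM in iKO 1 and was highest of iKO in iKO 3 (23.5 CPM). The part of pigment cells in these falls was not tested.

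Fas, which encodes the receptor of Fas ligand (ENSMUSG00000024778, chromosome 19, 34290659 to 34327770), was the scarcer of the 2 receptors among the 10 genes. It had 19 to 195 counts per library in iKO, or 0.614, 3.06 and 6.23 CPM, and 6 to 38 counts in Ctrl, or 0.131, 0.623 and 1.05 CPM. Of the iKO libraries 5 were above every Ctrl library, whereas iKO 1 lay within the Ctrl range. The log2 fold change was 2.46 ± 0.57 (edgeR, adjusted p = 0.00359), with the widest SE of the 10 genes. Within iKO, Fas was highest in iKO 2 (6.23 CPM) and iKO 5 (4.16 CPM). These were also the libraries with the highest summed fibroblast markers, 14737 and 10187 CPM. The other iKO libraries had 635 to 2451 CPM and Ctrl 2279 to 2603 CPM, and 2 of 8 markers tested higher. At like sums in iKO 1 (2403 CPM) and iKO 4 (2451 CPM), Fas was at 0.614 and 3.36 CPM. Summed keratinocyte markers, 5 of 5 tested higher, were at 229 CPM in iKO 2, 7.44 to 19.0 CPM in the other iKO libraries and 2.74 to 4.77 CPM in Ctrl. The part of these cell types in the values of Fas was not tested.

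The adaptor, the caspase and its inhibitor changed less, by at most 1.51-fold. Fadd, the adaptor between receptor and caspase-8 (ENSMUSG00000031077, chromosome 7, 144577318 to 144582463), fell to 17.3, 20.6 and 23.5 CPM in iKO, against 24.1, 25.8 and 28.4 CPM in Ctrl (log2 fold change -0.35 ± 0.09; edgeR, adjusted p = 0.00550). The groups were separate but close, with 23.5 CPM in the highest iKO and 24.1 CPM in the lowest Ctrl library. The antisense gene Faddos covers 6.12% of Fadd exon bases and had 21 counts in all iKO and 14 in all Ctrl libraries. Casp8, the initiator caspase (ENSMUSG00000026029, chromosome 1, 58795374 to 58847503), had 106, 110 and 118 CPM in iKO and 88.4, 90.5 and 96.8 CPM in Ctrl (log2 fold change 0.27 ± 0.05; edgeR, adjusted p = 0.000311). It was the steadiest of the 10 genes, with a coefficient of variation of 3.76% in iKO and 3.65% in Ctrl, and so its small change stood clear of the spread. Cflar (ENSMUSG00000026031, chromosome 1, 58711508 to 58758884) ends 36489 bases before Casp8 starts. It had 225, 245 and 282 CPM in iKO and 138, 168 and 182 CPM in Ctrl (log2 fold change 0.60 ± 0.08; edgeR, adjusted p = 6.00e-05), and Ctrl 5 was the lowest of the 12 libraries.

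Per length, as CPM per kb of the gene length in the deposited table, the order of the levels differed between the groups. In iKO, Mlkl (48.8 ± 7.51, mean and SD, n = 6) and Zbp1 (46.8 ± 13.2) were highest and lay within their spread of each other. Casp8 (38.3 ± 1.44) came next, with a range (36.6 to 40.9) that overlapped those of both, and then Cflar (19.7 ± 1.89). Ripk1 (7.12 ± 0.44), Ripk3 (6.26 ± 2.83) and Fadd (5.20 ± 0.70) formed a middle group in which Ripk3 did not differ from its neighbours beyond its spread. Tnfsf10 (2.55 ± 0.66), Tnfrsf10b (2.50 ± 0.37) and Fas (1.79 ± 1.05) were lowest and overlapped. In Ctrl, Casp8 (31.6 ± 1.15), Mlkl (23.9 ± 1.23) and Cflar (13.0 ± 1.28) led with ranges that did not overlap. Fadd (6.62 ± 0.36) and Zbp1 (5.89 ± 0.37) had overlapping ranges, with Ripk1 (4.48 ± 0.36) and Tnfrsf10b (3.53 ± 0.27) after them. Ripk3 (0.698 ± 0.430), Fas (0.327 ± 0.211) and Tnfsf10 (0.290 ± 0.083) were lowest and overlapped. The lengths are of all annotated exons merged, so genes with rarely used long exons, such as Cflar with 12669 bases, may be understated.

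In iKO 1, the iKO library whose leukocyte score was near that of Ctrl 5, Ripk3 and Fas lay within the range of all 6 Ctrl libraries. The other 8 of the 10 genes are those whose groups did not overlap, as in 22.9% of all tested genes. That iKO 1 lay beyond every Ctrl library in these 8 follows from that count and adds nothing to it. Zbp1 was at 87.0 CPM in iKO 1 and 21.6 CPM in Ctrl 5, a ratio of 4.03. Tnfsf10 was at 7.79 CPM in iKO 1 and 0.965 CPM in Ctrl 5 (8.07), Cflar at 243 and 138 CPM (1.76), Mlkl at 97.0 and 55.9 CPM (1.74) and Ripk1 at 52.7 and 33.3 CPM (1.59). In each of these 5 genes iKO 1 stood at least 1.59 times as high as Ctrl 5. Ripk3 was at 3.17 CPM in iKO 1 and 3.56 CPM in Ctrl 5 (ratio 0.890), and Fas at 0.614 and 1.05 CPM (0.586), from 19 and 38 counts. The ratio of iKO 1 to Ctrl 5 was 1.09 for Casp8, 0.890 for Tnfrsf10b and 0.741 for Fadd, each beyond the whole Ctrl range. These are single libraries, chosen for their scores after earlier results were known, and no test was made between them. Their marker sums differed by cell type. Macrophage and monocyte markers were at 250 CPM in iKO 1 and 444 CPM in Ctrl 5. T and cytotoxic lymphocyte markers were at 23.9 and 12.9 CPM, and neutrophil markers at 1.39 and 5.77 CPM.

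**Figure D2:**
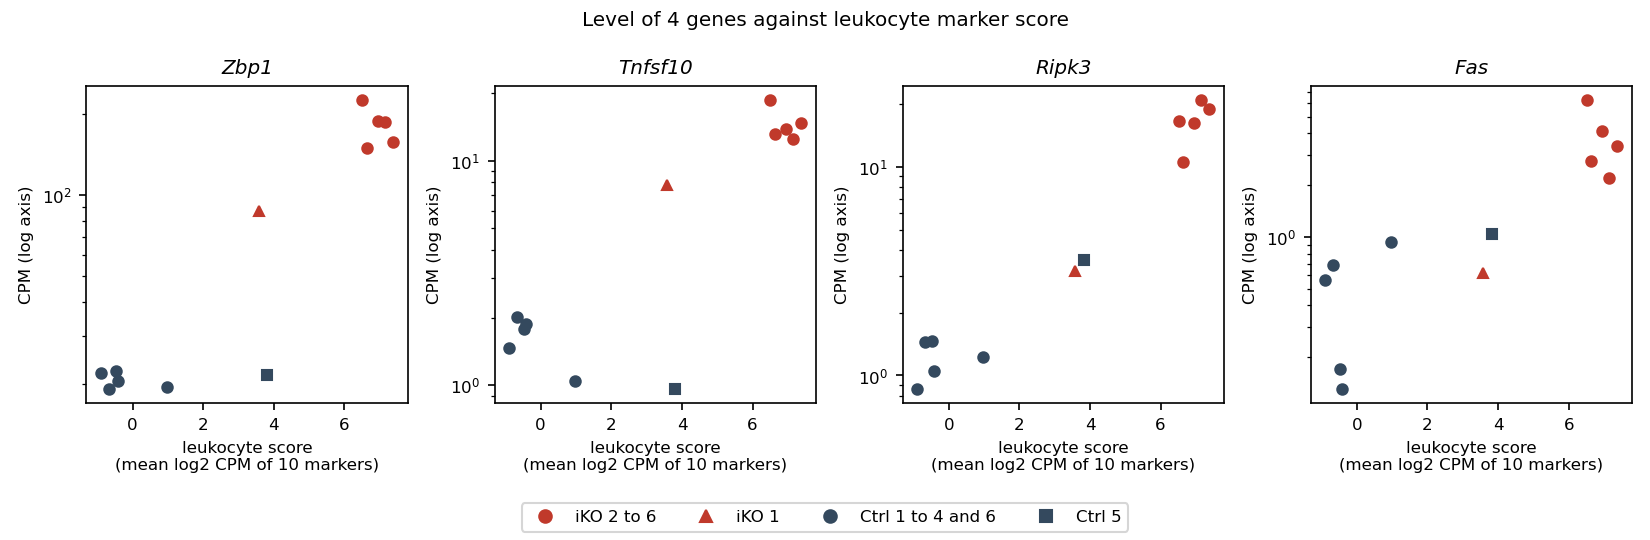
CPM of 4 genes (log axis) against the leukocyte score of each library, iKO in red and Ctrl in dark blue. For Zbp1 and Tnfsf10, iKO 1 lies well above Ctrl 5 at a like score, whereas for Ripk3 (3.17 and 3.56 CPM) and Fas (0.614 and 1.05 CPM) it lies below. Macrophage and T cell marker sums differ between iKO 1 and Ctrl 5.

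Zbp1, Tnfsf10, Cflar, Mlkl and Ripk1 kept a call when the leukocyte score entered the edgeR fit as a covariate. In that fit 6.49% of all tested genes were higher in iKO and 6.85% lower. The log2 fold changes were 3.37 for Tnfsf10 (edgeR, adjusted p = 0.00473), 2.33 for Zbp1 (0.00586), 0.97 for Mlkl (0.0121), 0.81 for Cflar (0.0104) and 0.74 for Ripk1 (0.00917). The calls of Ripk3 (0.29; edgeR, adjusted p = 0.787), Fas (-0.15; 0.953), Casp8 (0.15; 0.359), Fadd (-0.35; 0.289) and Tnfrsf10b (-0.17; 0.633) were lost. This fit rests on iKO 1 and Ctrl 5, since the scores of the other libraries of the 2 groups are far apart. It therefore uses the same 2 libraries as the ratios above and is not a separate test. A lost call there does not show that a gene was unaltered, and a kept call does not show a change apart from leukocytes.

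**Figure D3:**
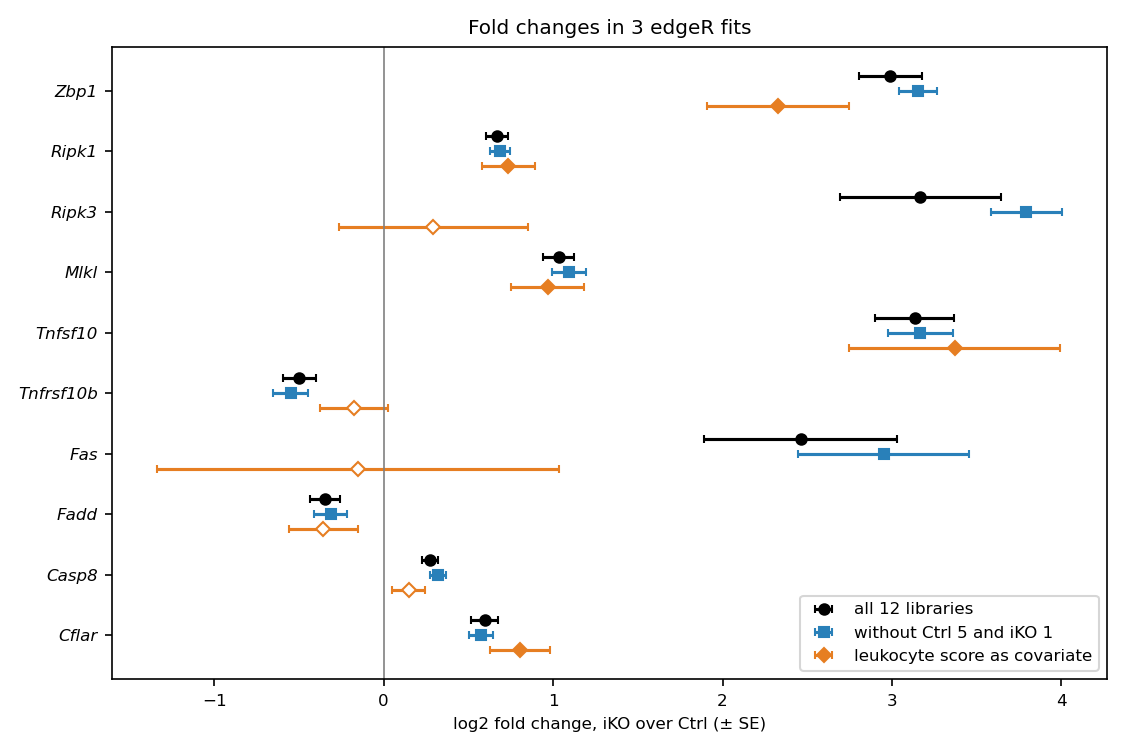
Log2 fold change of iKO over Ctrl with its SE for each gene in 3 edgeR fits: all 12 libraries, without Ctrl 5 and iKO 1, and with the leukocyte score as covariate. Filled symbols have an adjusted p below 0.05; with the covariate Ripk3, Fas, Casp8, Fadd and Tnfrsf10b are open.

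Ratios of gene pairs within each library asked whether partners moved by unequal amounts. The ratio does not depend on how libraries are scaled. The test was an exact permutation of the group labels (two-sided, 924 assignments, smallest possible p 0.00216), with p adjusted over the 4 pairs. The log2 ratio of Tnfsf10 to Tnfrsf10b was -0.05 ± 0.57 in iKO and -3.70 ± 0.39 in Ctrl (SD, n = 6 each), a difference of 3.64 without overlap (exact permutation test, adjusted p = 0.00577). Per length, ligand and receptor RNA stood at a geometric mean ratio of 0.997 in iKO and 0.0799 in Ctrl.

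Ripk3 gained on Ripk1, and Mlkl fell behind Ripk3. The log2 ratio of Ripk3 to Ripk1 was -2.27 ± 0.94 in iKO and -4.70 ± 0.80 in Ctrl, a difference of 2.43 (exact permutation test, n = 6 each, adjusted p = 0.00577). That of Mlkl to Ripk3 was 3.17 ± 0.97 in iKO and 5.26 ± 0.71 in Ctrl, a difference of -2.08 (exact permutation test, n = 6 each, adjusted p = 0.00577). In both ratios iKO 1 and Ctrl 5 were the libraries nearest to the other group, and there the groups overlapped. Per length Mlkl exceeded Ripk3 by 8.97 times in iKO and 38.0 times in Ctrl. Cflar gained slightly on Casp8, with a log2 ratio of 1.17 ± 0.17 in iKO and 0.85 ± 0.18 in Ctrl, a difference of 0.32 (exact permutation test, n = 6 each, adjusted p = 0.0108). The lowest ratio of all was 0.51 in Ctrl 5.

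**Figure D4:**
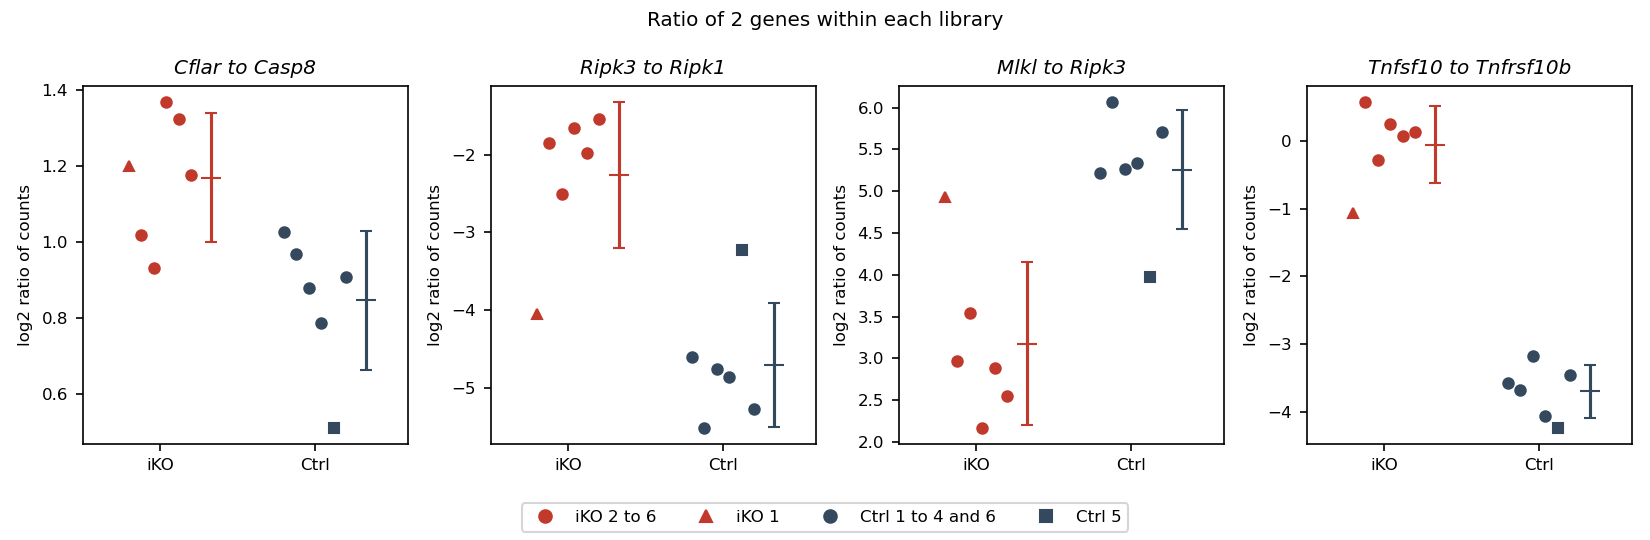
Log2 ratio of counts of 2 genes in each library, with mean and SD; iKO left of Ctrl in each panel. Tnfsf10 to Tnfrsf10b separates the groups (means -0.05 and -3.70), while the other 3 ratios overlap.

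Genes of the surrounding pathway were taken from 4 lists, against a background in which 25.0% of tested genes rose and 21.4% fell. Of the other death ligands and receptors 18 were listed and 16 tested; 11 rose and none passed as lower, with a median log2 fold change of 1.24. With the leukocyte score as a covariate 1 passed as higher, and the calls of Tnf (0.37; edgeR, adjusted p = 0.776), Fasl (-1.004; 0.459), Tnfrsf1a (0.29; 0.217), Tnfrsf1b (0.07; 0.963) and Tnfrsf12a (-0.02; 0.952) were lost. Tnf, which encodes the cytokine TNF, was at 16.3 ± 8.34 CPM in iKO and 0.549 ± 1.10 CPM in Ctrl (SD, n = 6 each), and 101 of its 122 Ctrl counts were in Ctrl 5. Its log2 fold change was 4.91 (edgeR, adjusted p = 0.00558), and without Ctrl 5 the counts stood in a ratio of 160 (95% counting interval 104 to 258). Fasl, which encodes the ligand of Fas, had 468 counts in iKO and 12 in Ctrl, all 12 in Ctrl 5. Fasl was at 0.129 CPM in iKO 1 and 0.331 CPM in Ctrl 5, Tnf at 3.33 CPM in iKO 1 and 2.79 CPM in Ctrl 5, and Tnfrsf1b at 7.72 CPM in iKO 1 and 12.3 CPM in Ctrl 5. The TNF receptor Tnfrsf1a, present on most cell types, was at 177 CPM in iKO and 119 CPM in Ctrl and rose by 0.57 on the log2 scale. Tnfrsf1b, the receptor typical of immune cells, rose by 4.29, but 446 of its 862 Ctrl counts were in Ctrl 5, and without that library its ratio was 36.3 (95% counting interval 32.9 to 40.1). The ratios of Tnf and Tnfrsf1b without Ctrl 5 keep iKO 1, and their intervals leave out the spread among libraries. In iKO, Tnf ranged from 3.33 to 28.9 CPM and Tnfrsf1b from 7.72 to 111 CPM. The TWEAK receptor Tnfrsf12a rose by 0.37, and the lymphotoxin receptor Ltbr was at 103 CPM in iKO and 101 CPM in Ctrl (0.03; edgeR, adjusted p = 0.767).

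Of 23 genes of the TNF receptor complex and its ubiquitin control 15 rose and none passed as lower (median log2 fold change 0.27). The ubiquitin ligases Birc2 and Birc3, which restrain RIPK1, rose by 0.33 and 2.11; Birc3 was at 27.4 ± 9.03 CPM in iKO and 6.32 ± 1.22 CPM in Ctrl. Birc2 (edgeR, adjusted p = 0.0201) lost its call without iKO 2 and iKO 3 (0.0576) and without the filter on low counts (0.0506). The adaptor Tab2 (0.23), the ubiquitin binder Tnip1 (0.30) and the kinase Mapkapk2 (0.27), which phosphorylates RIPK1, rose slightly. Rbck1, a subunit of the linear ubiquitin ligase, and Otulin, which removes linear ubiquitin, moved by 0.04 (edgeR, adjusted p = 0.545) and -0.004 (0.974) on the log2 scale and did not pass. With the leukocyte covariate 3 of the 23 passed as higher, and the calls of Birc2 (0.05; edgeR, adjusted p = 0.922), Birc3 (1.20; 0.191), Tnip1 (0.08; 0.743) and Mapkapk2 (-0.04; 0.888) were lost.

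Among 16 other RHIM proteins and regulators of necroptosis 7 rose and 4 fell (median 0.18). Adar, whose Z-RNA binding form restrains ZBP1, was at 188 ± 8.14 CPM in iKO and 90.1 ± 8.68 CPM in Ctrl (log2 fold change 1.06 ± 0.07; edgeR, adjusted p = 5.29e-08), though 16.8% of its exon bases are shared with Chrnb2. Tlr3, a sensor of double-stranded RNA, rose by 1.02 and its RHIM adaptor Ticam1 by 0.58. The chaperones Hsp90aa1 (-0.43), Hsp90ab1 (-0.22) and Cdc37 (-0.27), which fold client kinases including RIPK1 and RIPK3, fell. The call of Hsp90ab1 (edgeR, adjusted p = 0.0215) was lost without any 1 of Ctrl 2, 3, 4 or 5 (0.0606 to 0.0730), with the replicate block (0.0552) and with the leukocyte covariate (0.470), and that of Cdc37 (0.0142) without iKO 2 and iKO 3 together (0.0539). Of the membrane repair genes Chmp2a had -0.10 (edgeR, adjusted p = 0.397) and Chmp4b 0.17 (0.0867). Chmp4b passed without Ctrl 5 (0.25; edgeR, adjusted p = 0.0105) or without iKO 1 (0.20; 0.0474). With the leukocyte covariate Chmp2a passed as lower (-0.53; edgeR, adjusted p = 0.0304), Chmp4b was at -0.23 (0.256), and Ticam1 lost its call (0.62; 0.0563); 3 genes of this list then passed as higher and 4 as lower.

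Downstream of caspase-8, 9 of 21 tested genes rose and 2 fell (median 0.19). Bid, which caspase-8 cleaves to reach the mitochondria, rose by 0.59, with 17.7% of its exon bases shared with Bcl2l13, and the survival gene Mcl1 rose by 0.58. Cycs, which encodes cytochrome c, fell to 250 ± 21.8 CPM in iKO, against 362 ± 34.5 CPM in Ctrl (-0.53), and the pore former Bax fell by 0.30. Its partner Bak1 had 0.19 (edgeR, adjusted p = 0.0804) and passed without Ctrl 5 (0.0392) or without iKO 1 (0.0184), at 0.24 in each. Htra2, a mitochondrial protease, had 0.01 (edgeR, adjusted p = 0.954). Shared exon bases made up 43.7% in Htra2, 25.5% in Bak1 and 12.2% in Bax. With the leukocyte covariate 2 genes passed as higher and 2 as lower, and the calls of Mcl1 (-0.16; edgeR, adjusted p = 0.696) and Bid (0.42; 0.197) were lost.

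**Figure D5:**
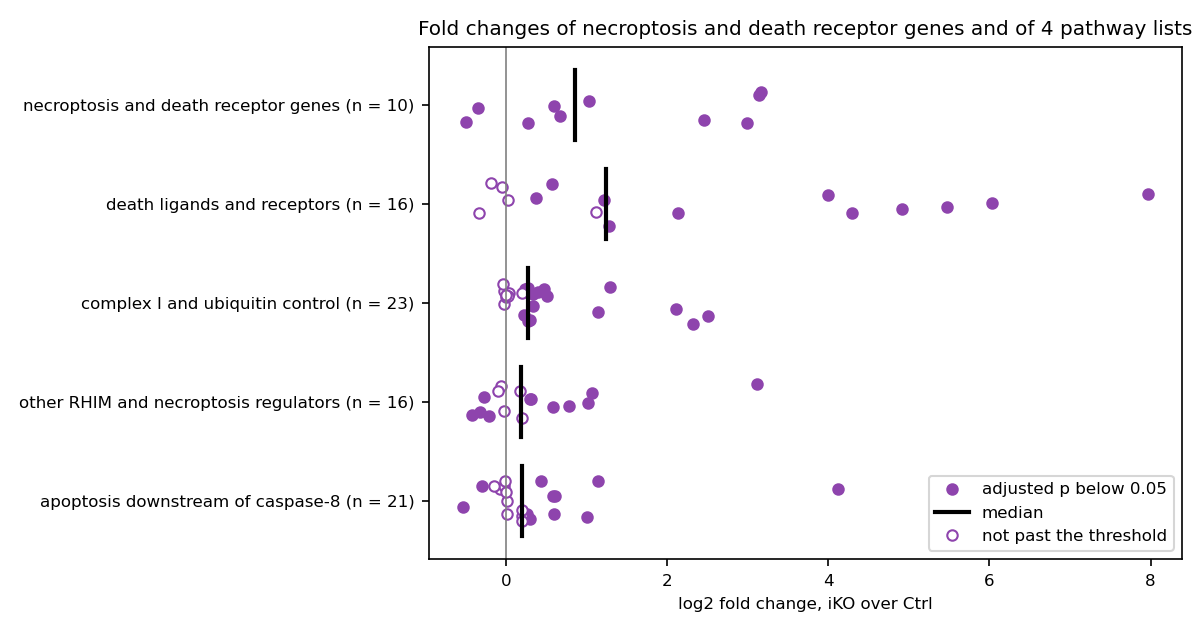
Log2 fold change of iKO over Ctrl for each tested gene of the necroptosis and death receptor set and of 4 pathway lists; filled points have an edgeR adjusted p below 0.05 and bars mark medians (0.85, 1.24, 0.27, 0.18 and 0.19 from top to bottom). The point at 7.97 is Tnfsf15, with 0 counts in all Ctrl libraries, so its fitted value is no bound.

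For each of the 10 genes the most similar profiles were sought by Pearson r of log2 CPM over the 12 libraries, among 13830 other genes with a mean of at least 1 CPM. All such r share the split between groups and the intermediate leukocyte scores of iKO 1 and Ctrl 5, and are given as a description. Zbp1 was most like the guanylate-binding protein genes Gbp2 (0.998) and Gbp9 (0.998). Tnfsf10 and Ripk1 had the same nearest pair, Helz2 (0.994 and 0.988) and Rnf213 (0.994 and 0.988). Mlkl was nearest to Ifi44 (0.985) and Cmpk2 (0.984), and Cflar to Crebrf (0.983) and Aff1 (0.977). Ripk3 was nearest to Mpp1 (0.996) and Il4ra (0.995), Casp8 to Tlr9 (0.971) and Rtp4 (0.970), and Fas to Piwil2 (0.977) and Fam43a (0.968). Fadd was nearest to Ddx39 (0.964) and Fam98a (0.957), and Tnfrsf10b to Cavin2 (0.961) and Col9a1 (0.960), all of which were lower in iKO.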

How the data were processed

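Bulk RNA-seq of 12 tumour libraries was used. The authors deposited raw counts for each Ensembl gene, and the submitters' processing notes name mm10 as the build. No source used here gives the aligner or the counting program. Libraries were poly-T selected and unstranded, per the labels' protocols. The labels call the library source single cell, but the table holds 1 column per tumour. Of the labels, 1 describes the sort as negative for CD45 and CD31, another as negative for either. Deposited lengths matched the merged exons of GENCODE M21 in 9 of the 10 genes (not Fas).

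The main test was edgeR 4.0.16 (quasi-likelihood, robust, TMM) in R 4.3.3 on 16164 genes (minimum count 10, minimum total 15, 99.9% of counts), group as the only term, Benjamini-Hochberg over all of them, threshold 0.05. SE is the absolute log2 fold change over the square root of F. Ratios added 0.5 to counts. Intervals (95%) and floors (3 counts) cover counting error only; a count of 0 allows 0.0655 to 0.101 CPM. No same-group pair was alike within sampling noise (chi-square per degree of freedom 7.47 or more). Tests were run on simulated data first. Genes named from the lists were the 5 of each list with the highest level per length and 10 chosen for their role; the 2 nearest profiles of each of the 10 genes were also named. Some of these genes are not reported here. Alternatives were RLE, upper quartile and no scaling, no filter, DESeq2 1.42.0, limma 3.58.1 voom, a replicate block, left-out libraries and a leukocyte covariate. The 10 genes, the lists and the alternatives were chosen with earlier results of these data known.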

Additional observations from a re-analysis of the deposited data

Results flagged for a closer look

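Ripk3 in Ctrl 5, at 3.56 CPM, stood apart from the other Ctrl libraries, which lay between 0.865 and 1.46 CPM: its gap to the next library was 0.781 of the whole range of the group, above the critical value of 0.625 for 6 samples. It was the only such value in the 28 groups of values examined (the 10 genes and the 4 ratios, each in iKO and Ctrl). Chance gives such a value in about 1 of every 20 groups, so 1 among 28 is not unusual. Summed leukocyte markers were at 197 CPM in Ctrl 5 and 34.0 to 49.5 CPM in the other Ctrl libraries, and their part in the value was not tested.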

How the results depend on the processing

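The 8 rises and 2 falls among the 10 genes kept direction and call under each of 21 alternatives (scaling, filter, DESeq2, limma voom, replicate block, left-out libraries); the leukocyte covariate was the exception. With that covariate 5 genes were higher and 0 lower, and Fas went to -0.15; over all genes 1049 were higher and 1107 lower, and list counts of higher genes were 1 (death ligands and receptors), 3 (complex I and ubiquitin control), 3 (other RHIM and necroptosis regulators) and 2 (downstream of caspase-8). The cause was not tested. Of the death ligands and receptors, 1 gene passed as lower with upper quartile scaling, without the filter, and without Ctrl 5 and iKO 1 together, and 0 to 1 when single libraries were left out. Leaving out single libraries, the log2 fold change of Ripk3 was 3.03 to 3.58 and that of Fas 2.17 to 2.73; the ratio differences kept sign and call, with adjusted p of 0.0216 or less (exact permutation test). Replicate numbers did not pair the libraries (correlations of deviations from -0.13 to 0.25); with the replicate block 8 genes were higher and 2 lower, 3489 and 2984 over all genes, and the 4 ratios had adjusted p = 0.0313 (exact sign-flip test), the smallest it can give. Counts of 6 to 38 per Ctrl library limit the precision for Fas.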

Other observations

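Genes of the pathway lists outside the naming rule were looked at after their values were seen. Among the subunits of the linear ubiquitin ligase, Rnf31, the catalytic subunit, was at 54.1 ± 10.7 CPM in iKO and 24.6 ± 1.25 CPM in Ctrl (SD, n = 6 each; log2 fold change 1.14, edgeR adjusted p = 8.49e-06). Its partner Sharpin was at 47.1 ± 5.34 CPM in iKO and 41.3 ± 3.81 CPM in Ctrl (0.19; edgeR, adjusted p = 0.0775). Whether these changes differ between the subunits was not tested. The deubiquitinases Tnfaip3 and Cyld, both brakes on the TNF receptor complex, rose by 2.50 and 0.50 on the log2 scale, and the kinases Ikbke and Tbk1, which can phosphorylate RIPK1, by 1.29 and 0.40 (edgeR, adjusted p of 0.000198 or less for each). With the leukocyte covariate only 3 of the 23 genes of their list passed as higher. Values of Rnf31, Tnfaip3, Cyld, Ikbke and Tbk1 in that fit are not given here. Tnfaip3 was at 16.3 CPM in iKO 1 and 13.9 CPM in Ctrl 5, and at 59.7 to 97.4 CPM in the other iKO libraries. The BH3-only gene Bcl2l11 rose by 1.15, although iKO 1 (14.6 CPM) was close to Ctrl 5 (14.3 CPM), and Bbc3 had -0.08 (edgeR, adjusted p = 0.492).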
